A study of Mus musculus with 6 samples.

Results

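Periportal hepatocytes line the portal tracts, where blood enters the liver lobule. Here they were taken as hepatocyte nuclei, chosen by measured counts, in which the UMIs (unique molecular identifiers, each counted as 1 RNA molecule) of Hal, Sds, Cyp2f2 and Gls2 made up at least 0.05% of all UMIs of the nucleus. That percentage is called the gate share below. Of 41882 barcodes in 6 single-nucleus RNA-seq libraries of mouse liver, 3961 (9.46%) met the rule, which was 37.0% of the 10699 hepatocyte nuclei. A hepatocyte nucleus had fewer than 5000 genes, under 5% mitochondrial UMIs, at least 2500 UMIs, UMIs of at least 4 of the 6 hepatocyte genes Alb, Apob, Hnf4a, Ttr, Fn1 and Plg, and at most 3 UMIs in all on Ptprc, Ptprb, Stab2, Dcn and Skap1, which mark immune, endothelial and fibroblast cells. Nuclei with 0.2% or more of their UMIs on Glul and Slc1a2, which mark the hepatocytes next to the central vein, formed a class of their own (Glul-high). Hepatocyte nuclei that met neither limit are called non-zonal.

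The mice were male DIAMOND mice, labelled 129A1/SvIm and C57BL/6J cross, which began their diets at 2 months of age. The 2 Ctrl mice were on a chow diet for 40 weeks, the 2 Pre-T (pre-tumor) mice on a Western diet (WD), rich in fat, with sugar water to drink, over 40 weeks, and the 2 Post-T (post-tumor) mice on the WD over 48 weeks. Post-T mice differed from Ctrl mice in both diet and weeks, which cannot be told apart here, and the titles of the Post-T samples name tumor while their tissue labels name liver. Each mouse gave 1 library from snap-frozen liver, so the p-values below rest on the spread between 2 mice per group, pooled over the 3 groups. The tests also share this spread between genes. A very small p-value therefore does not measure the spread between mice of that gene alone.

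Hepatocytes divide their work along the axis from the portal tract to the central vein. Periportal hepatocytes meet blood rich in oxygen and nutrients first, and are known for gluconeogenesis, urea synthesis from ammonia and the breakdown of amino acids. Pericentral hepatocytes, under Wnt signals from the central vein, are known for glutamine synthesis, bile acid synthesis from cholesterol and drug metabolism by cytochrome P450 enzymes. Of the 4 genes of the rule, Hal (histidine ammonia-lyase, chr10:93488768-93519304 in GRCm38) starts histidine breakdown, Sds (serine dehydratase, chr5:120476526-120483932) turns serine into pyruvate and ammonia, Gls2 (liver glutaminase, chr10:128194457-128210004) releases ammonia from glutamine, and Cyp2f2 (chr7:27119909-27133660) is a cytochrome P450. Ass1 (argininosuccinate synthase of the urea cycle, chr2:31470207-31520672) was not used by the rule and served to check the label.

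The libraries held 5638 to 8469 barcodes and 22453658 to 40307564 UMIs. Periportal nuclei held 9934364 and 9509397 UMIs in Ctrl, 2042101 and 2481117 in Pre-T, but only 119986 and 12312 in Post-T, so that Post-T values rest on few molecules. Their median depth was 4837.5 and 5166 UMIs per nucleus in Ctrl, 7679 and 5799 in Pre-T, and 5505.5 and 12312 in Post-T. Between libraries, 181 barcode sequences recurred, 31 periportal nuclei carried such a sequence, and 1 sequence was periportal in more than 1 library.

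Periportal nuclei were the majority of hepatocyte nuclei in Ctrl, the minority in Pre-T, and nearly undetected in Post-T. In Ctrl 1 they were 1768 of 2722 hepatocyte nuclei (65.0%, exact 95% interval 63.1 to 66.7%), and in Ctrl 2 they were 1546 of 2229 (69.4%, 67.4 to 71.3%). In Pre-T 1 they were 259 of 1582 (16.4%, 14.6 to 18.3%) and in Pre-T 2 371 of 1159 (32.0%, 29.3 to 34.8%). In Post-T 1 they were 16 of 1638 (0.977%, 0.559 to 1.58%) and in Post-T 2 1 of 1369 (0.0730%, 0.00185 to 0.406%). The 3 groups did not overlap, with means of 67.2% ± 3.12, 24.2% ± 11.1 and 0.525% ± 0.639 (SD, n = 2 mice each). The intervals cover counting error only. These shares are set by the genes of the rule and are a description, with no test.

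The other classes of hepatocyte nuclei differed between the WD mice as well. Non-zonal nuclei were 29.4 and 22.7% of hepatocyte nuclei in Ctrl, 40.8 and 59.7% in Pre-T, and 21.4 and 1.75% in Post-T. Glul-high nuclei were 5.62 and 7.94% in Ctrl, 42.8 and 8.28% in Pre-T, and 77.6 and 98.2% in Post-T. Pre-T 1, with the smaller periportal share of the 2 Pre-T mice, was the one with the larger Glul-high share, and in both Post-T mice Glul-high nuclei were the majority.

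**Figure D1:**
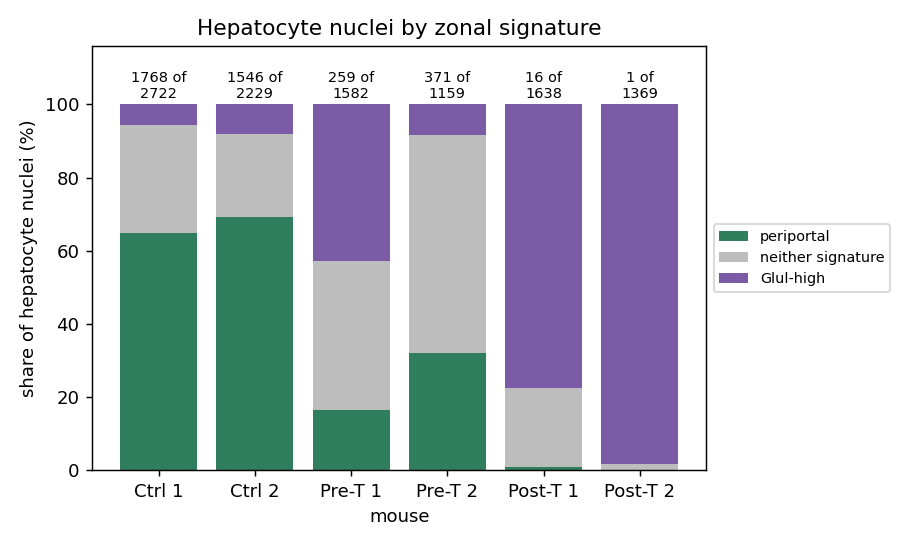
Stacked bars give the share (%) of hepatocyte nuclei in each mouse that were periportal, non-zonal (labelled neither signature) or Glul-high, with the number of periportal nuclei of all hepatocyte nuclei above each bar. The periportal part falls from 65.0 and 69.4% in Ctrl to 16.4 and 32.0% in Pre-T and to 0.977% or less in Post-T.

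UMIs of these genes were also seen in nuclei of another cell type, and in a larger share of them in each Ctrl mouse than in each Pre-T or Post-T mouse. In endothelial nuclei, which should lack the 4 genes (at least 4 UMIs of Ptprb and Stab2, none of Ptprc, under 2500 UMIs), a UMI of any of the 4 was seen in 60.6 and 45.2% of nuclei in Ctrl, 8.47 and 24.5% in Pre-T, and 1.78 and 0.288% in Post-T, at median depths of 1409 to 1791 UMIs. Endothelial nuclei held a mean of 1.21 and 0.714 such UMIs in Ctrl, 0.116 and 0.277 in Pre-T, and 0.0222 and 0.00288 in Post-T, against 17.2 and 22.9, 13.3 and 9.95, and 8.88 and 38.0 in periportal nuclei. These counts do not allow for the lower depth of endothelial nuclei. In CPM, a unit defined below, the 4 genes summed to 734 and 494 in endothelial nuclei of Ctrl. In those of Pre-T they summed to 74.0 and 167, and in Post-T to 15.2 and 1.63. Periportal nuclei stood at 3053 and 3726 in Ctrl, 1687 and 1488 in Pre-T, and 1183 and 3086 in Post-T. In this unit the 0.05% limit lay between the endothelial values of the 2 Ctrl mice, and above those of the other mice. Of the Glul-high nuclei, 8.50 and 8.47% reached the 0.05% limit in Ctrl, 1.18 and 1.04% in Pre-T, and 0% (0 of 1271 and 0 of 1344 nuclei) in Post-T. The counts of 0 allow shares of up to 0.236 and 0.223%. The share of Glul-high nuclei that reached the limit was thus far under the periportal share in each Ctrl and Pre-T mouse, whereas the single nucleus of Post-T 2 lay under the share that a count of 0 allows. The part of free RNA in the difference between groups was not tested. With the limit doubled to 0.1%, periportal nuclei were 60.4% of hepatocyte nuclei of the Ctrl mice, 15.7% of those of Pre-T and 0.311% of those of Post-T (means of 2 mice).

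The limit cut through a continuous range of gate shares. The periportal nucleus nearest to it had 0.0501% (3 of 5991 UMIs), and the nearest nucleus outside had 0.0499% (7 of 14038 UMIs). Periportal nuclei of Ctrl lay well above the limit, with a median gate share of 0.285 and 0.374%, while those of Pre-T lay closer to it at 0.151 and 0.118%. In Post-T 1 the median was 0.116%, and the only periportal nucleus of Post-T 2 had 0.309%.

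**Figure D2:**
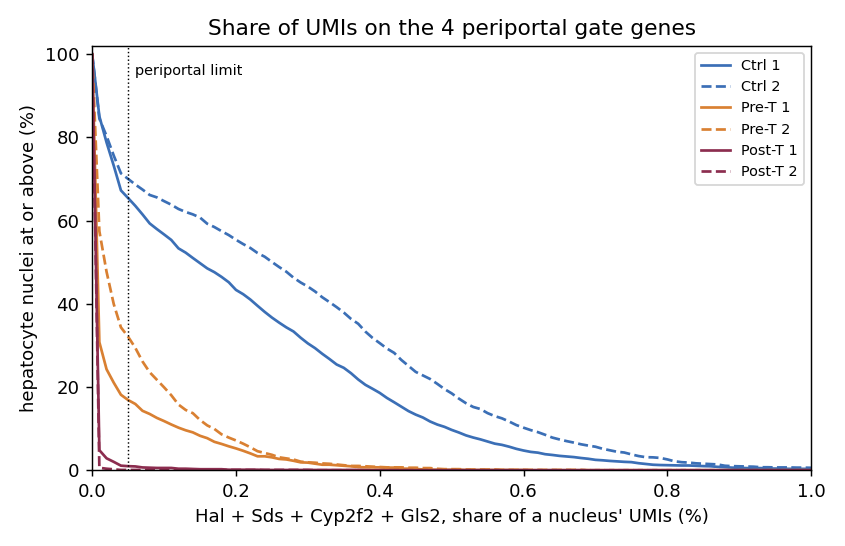
Each line gives, for 1 mouse, the share (%) of all its hepatocyte nuclei (y axis) whose gate share is at or above the value on the x axis (% of the nucleus' UMIs), and the dotted line marks the limit of 0.05%. The Ctrl lines lie above the Pre-T lines and these above the Post-T lines at the limit and at 0.1%. At 0.1% the Ctrl lines stand at 56.7 and 64.7%, the Pre-T lines at 11.8 and 19.9% and the Post-T lines at 0.549 and 0.073%.

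The 4 genes did not contribute equally, and their balance differed between the groups. Hal had a UMI in 92.4% of all periportal nuclei, Gls2 in 84.8%, Cyp2f2 in 78.4% and Sds in 78.1%, and 57.5% of the Ctrl and 38.4% of the Pre-T nuclei held all 4. Hal gave 55.2 and 45.0% of the 4-gene UMIs in Ctrl but 30.2 and 30.8% in Pre-T, where Sds gave the largest part (37.9 and 33.2%, against 13.9 and 26.1% in Ctrl). Levels below are in CPM, counts per 1000000, that is the UMIs of a gene divided by all UMIs summed over the nuclei of a class in 1 mouse and multiplied by 1000000. Hal stood at 1686 and 1678 CPM in periportal nuclei of Ctrl, 510.3 and 458 CPM in Pre-T and 100.012 and 569 CPM in Post-T. Sds stood at 424 and 971 CPM in Ctrl, 639.5 and 493 CPM in Pre-T and 633 and 2031 CPM in Post-T. Hal was thus lower in each Pre-T mouse than in each Ctrl mouse and Sds was not, values that the rule itself touched and that carry no test.

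Ass1, which the rule did not use, was higher in periportal than in non-zonal nuclei of every mouse, as the label asks. In periportal nuclei it stood at 1247 and 1224 CPM in Ctrl and 726 and 734 CPM in Pre-T and 933 and 2274 CPM in Post-T, and in non-zonal nuclei of the same mice at 583 and 565 CPM in Ctrl, 267 and 379.5 CPM in Pre-T and 392 and 673 CPM in Post-T. A UMI of Ass1 was seen in 94.3 and 95.3% of periportal nuclei in Ctrl and 94.6 and 90.0% in Pre-T, against 78.2 and 77.1% of non-zonal nuclei in Ctrl and 66.3 and 74.7% in Pre-T. After every nucleus was thinned to 2500 UMIs, the shares of periportal nuclei were 88.2 and 87.6% in Ctrl and 77.2 and 75.7% in Pre-T, and those of non-zonal nuclei 63.4 and 61.3% in Ctrl and 40.1 and 54.2% in Pre-T. In endothelial nuclei, at their lower depth and without thinning, they were 42.7 and 23.9% in Ctrl and 8.47 and 41.7% in Pre-T.

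The zonal profile of periportal nuclei reached well past the 4 genes. It was described as the log2 ratio of a gene's CPM in periportal to non-zonal nuclei of the same mouse, with no test, since the rule split the same nuclei. Of 21 other genes known to be periportal, 19 were higher in periportal nuclei in each of the 4 Ctrl and Pre-T mice, and of 21 pericentral genes all 21 were lower. Over all 9411 genes of at least 10 CPM, 1077 were higher and 2501 lower in each of these 4 mice. The median log2 ratio of the periportal genes was 0.83 in Ctrl and 1.01 in Pre-T, and that of the pericentral genes -2.09 in Ctrl and -1.03 in Pre-T. The 2 periportal genes without this order were Nags, which makes the activator of the first urea cycle enzyme (log2 ratios -0.19 and -0.35 in Ctrl and 0.58 and 0.16 in Pre-T), and Apoa4, an apolipoprotein (0.79 and -0.48 in Ctrl and -0.62 and -0.04 in Pre-T).

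Genes were ranked by the mean log2 ratio over all 6 mice, with the 16 nuclei and 1 nucleus of Post-T included, among genes of 1 sign in all 6 mice and at least 10 CPM (in periportal nuclei for the highest ratios, in non-zonal nuclei for the lowest), and a ranking over Ctrl and Pre-T alone would differ. Etnppl, which degrades phosphoethanolamine, had log2 ratios of 3.19 and 4.25 in Ctrl and 2.94 and 3.72 in Pre-T. Among the 15 genes with the highest means were also Sdsl, a relative of Sds (2.81 and 4.11 in Ctrl and 3.40 and 1.76 in Pre-T), Gldc of the glycine cleavage system (1.79 and 2.85 in Ctrl and 2.22 and 1.57 in Pre-T), Amdhd1 of histidine breakdown (1.82 and 1.78 in Ctrl and 1.88 and 1.61 in Pre-T) and Aspg, an asparaginase (2.42 and 1.93 in Ctrl and 1.75 and 1.32 in Pre-T). The other genes of the 15 were Mmd2, Acpp, Bdh2, Hsd17b6, Grm8, Cib3, Cryl1, Hsd17b13, AC135859.1 and Reck. Urea cycle genes were zonated more weakly, with 0.52 and 0.30 in Ctrl and 1.63 and 1.21 in Pre-T for Cps1, the entry enzyme of the cycle, 1.33 and 1.52 in Ctrl and 1.60 and 1.30 in Pre-T for Asl, and 0.92 and 0.43 in Ctrl and 1.29 and 1.06 in Pre-T for Arg1.

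Among the 10 genes with the lowest means over the 6 mice were Lgr5, a receptor that strengthens Wnt signals (-3.35 and -3.76 in Ctrl and -3.32 and -3.15 in Pre-T), and Cyp2c38, a cytochrome P450 (-3.80 and -3.54 in Ctrl and -5.20 and -3.40 in Pre-T). Rbms3, Lhfp, Prkg1, Zfpm2, Adamts9, Lhpp and Airn were also among the 10. Rbms3, Lhfp, Prkg1, Zfpm2 and Adamts9 are also expressed by mesenchymal or endothelial cells of liver, and the 8 stellate cell and fibroblast markers summed to 405 and 429 CPM in non-zonal nuclei of Ctrl, against 225 and 182 CPM in periportal nuclei, and to 118 and 218 CPM against 38.2 and 117 CPM in Pre-T. Their part in these ratios was not tested. The Wnt targets Axin2, Nkd1, Rnf43 and Znrf3 were lower in periportal nuclei of all 4 mice, from -2.37 and -2.32 in Ctrl for Axin2 to -0.44 and -0.39 for Znrf3.

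**Figure D3:**
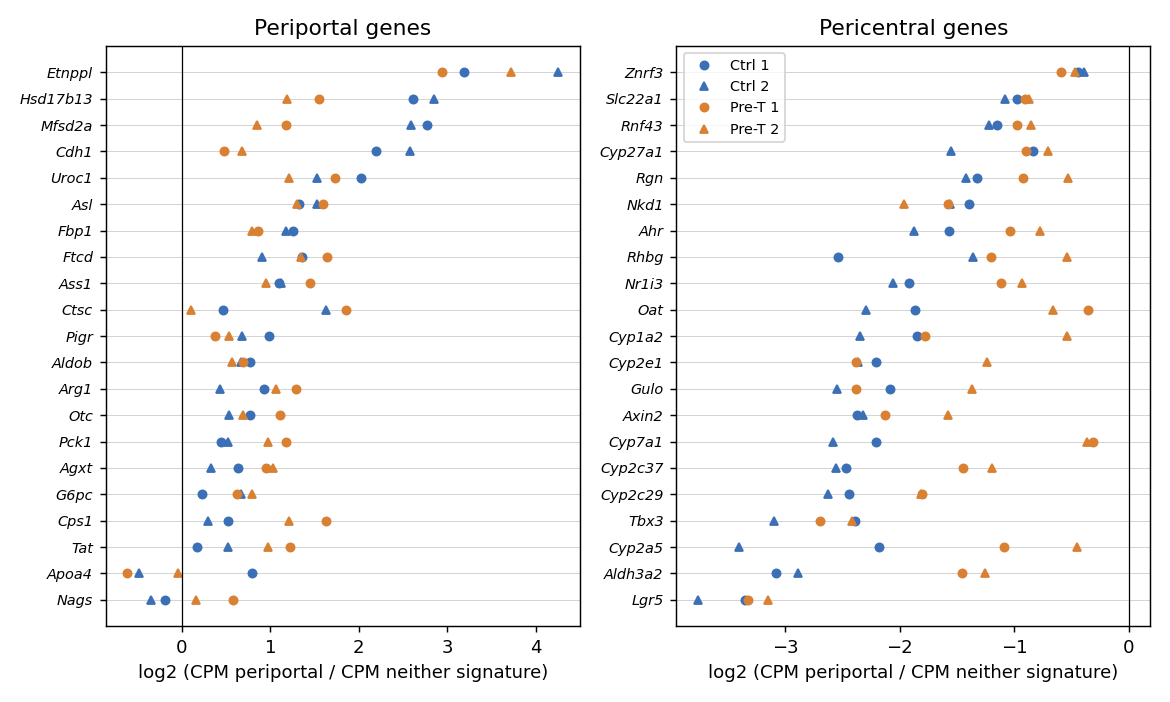
Points give, for 21 periportal genes (left) and 21 pericentral genes (right), the log2 ratio of CPM in periportal to non-zonal nuclei (x axis) in each of the 2 Ctrl and 2 Pre-T mice. All pericentral points lie left of 0, and in Pre-T many lie closer to 0 than in Ctrl (medians -1.03 and -2.09).

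Within the periportal nuclei, the same genes followed the gate share. In Ctrl, Ass1 stood at 803 and 795 CPM in nuclei with a gate share of 0.05 to 0.1% and at 1636 and 1457 CPM in those with 0.5% or more. Etnppl went from 353 and 310.3 to 1715 and 2179 CPM between the same bins, while Cyp2e1, a pericentral cytochrome P450, went from 659 and 2141 to 187 and 209 CPM. The bins were cut on genes of the rule, so these are descriptions too.

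The levels were also set side by side at matched gate share. In nuclei with a gate share of 0.2 to 0.5% (912 and 816 in Ctrl, 80 in each Pre-T mouse), Etnppl stood at 1172 and 1749.8 CPM in Ctrl and 174 and 190.0 CPM in Pre-T. Ass1 stood at 1296 and 1243 CPM in Ctrl and 873 and 871 CPM in Pre-T, Cyp2c29, a pericentral P450, at 266 and 129.997 CPM in Ctrl and 61.2 and 73.5 CPM in Pre-T, and Hsd17b13, a lipid droplet protein, at 369 and 619 CPM in Ctrl and 633 and 500.1 CPM in Pre-T. Cps1 stood at 5036 and 5813 CPM in Ctrl and 5298 and 5157 CPM in Pre-T. Etnppl, Ass1 and Cyp2c29 were thus lower in both Pre-T mice than in both Ctrl mice in this bin, while Cps1 of Pre-T lay within the range of the Ctrl mice. The match is in gate share as measured. The genes of the rule summed to 734 and 494 CPM in endothelial nuclei of Ctrl and 74.0 and 167 CPM in those of Pre-T. The part of free RNA in the bins and in these levels was not tested.

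**Figure D4:**
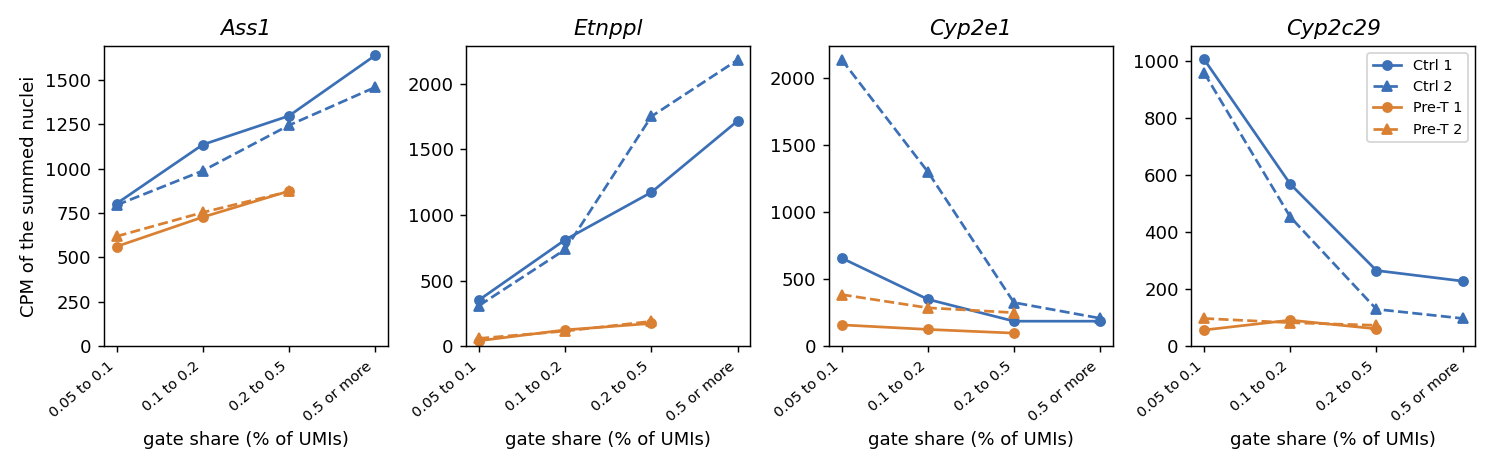
Lines give the CPM of Ass1, Etnppl, Cyp2e1 and Cyp2c29 (y axes, linear from 0) in periportal nuclei of 2 Ctrl and 2 Pre-T mice, summed in bins of gate share (x axis, % of the nucleus' UMIs), for bins of at least 20 nuclei. Ass1 and Etnppl rise from the first to the last bin in each Ctrl mouse, and Etnppl of Pre-T lies under Ctrl in each shared bin.

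The comparison of Pre-T with Ctrl asked what differed within periportal nuclei after 40 weeks of WD. Genes called higher in Pre-T included 11 of 26 of lipid storage and lipogenesis, 6 of 21 of the acute phase and Cyp7a1, and genes called lower included 9 of 15 of cholesterol synthesis and uptake and 6 of 14 male-biased genes. With edgeR's quasi-likelihood test on UMIs summed per mouse, with all 6 mice in 1 fit, 1020 of 16422 genes tested had an adjusted p under 0.05 (6.21%), 535 of them higher (3.26%) and 485 lower (2.95%). Without the Post-T mice 519 genes (3.16%) were called, of which 478 were among the 1020, all in the same direction (238 of the 519 higher, 1.45%, and 281 lower, 1.71%). DESeq2 called 861, of which 675 were among the 1020. With the size factors of DESeq2 in edgeR the median log2 fold change of all genes moved from -0.00339 to 0.129, and 694 genes were called higher and 404 lower. Fold changes below are log2 ± SE, and calls were followed through 20 alternative settings of the fit (other scaling, filter, test, gate or depth, or a mouse left out).

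The 10 genes with the largest rises (mean of at least 10 CPM, no overlap between the mice) included an acute phase protein, a sulfotransferase and a prostaglandin enzyme. Lcn2, an iron-binding acute phase protein (chr2:32384633-32388252), had 2 and 1 UMIs in Ctrl and 123 and 233 in Pre-T, a ratio of 510.1 (95% counting interval 173 to 2485), adjusted p = 7.94e-07 (edgeR). Sult1e1, the estrogen sulfotransferase, had 0 and 3 UMIs in Ctrl and 75 and 189 in Pre-T, a ratio of 378 (95% counting interval 128 to 1846), adjusted p = 1.82e-06. Ptges, a prostaglandin E synthase, stood at 0.101 and 0.736 CPM in Ctrl and 127 and 110.0 CPM in Pre-T (log2 fold change 7.85 ± 0.51, adjusted p = 1.43e-07). Osbpl3, an oxysterol-binding protein, stood at 5.54 and 10.5 CPM in Ctrl and 275 and 218 CPM in Pre-T (log2 fold change 4.72 ± 0.36, adjusted p = 6.26e-07). A gap between the groups was part of how these genes were chosen. Tmprss11f, Saa2, Igf2bp2, Grin2b and Ly6d rose by 4.98 to 5.49 on the log2 scale. All 9 were called in each of the 20 alternatives, while Slc22a27 (0 and 1.89 CPM in Ctrl and 33.8 and 19.7 CPM in Pre-T) lost its call in 7, among them the fit without the Post-T mice.

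The 10 largest falls included a steroid enzyme, a sulfotransferase and major urinary proteins. Hsd3b5, a 3-ketosteroid reductase of male liver (chr3:98618634-98630252), had 698 and 321 UMIs in Ctrl and 0 and 1 in Pre-T, a ratio of 237 (95% counting interval 42.5 to 9372) (edgeR adjusted p = 5.69e-06). Sult2a8, a bile acid sulfotransferase, stood at 1201 and 768 CPM in Ctrl and 25.5 and 39.9 CPM in Pre-T (log2 fold change -5.14 ± 0.51, adjusted p = 6.6e-06). Susd4, a complement regulator, had 610 and 486 UMIs against 0 and 3 (adjusted p = 4.3e-06). These 3 were called in each alternative. The 2 Ctrl mice differed widely for others. Mup7, a major urinary protein, stood at 145 and 7.26 CPM in Ctrl and 0 and 0.806 CPM in Pre-T, Serpina1e, an alpha-1-antitrypsin, at 2522 and 635 CPM in Ctrl and 31.8 and 77.0 CPM in Pre-T, and Sgcz, a sarcoglycan, at 66.4 and 8.94 CPM in Ctrl and 0.490 and 0.403 CPM in Pre-T. Mup7, Sgcz, Mup11 and Colgalt2 were not called without the Post-T mice. Egfem1 lost its call in 1 alternative, Serpina1e in 2 and Ephb1 in 5, and Ephb1, with 0 UMIs in both Pre-T mice and 5.44 and 3.99605 CPM in Ctrl, passed the level limit through 1 UMI in Post-T 2. Members of the Mup, Serpina1, Saa, Orm, Hsd3b, Sult2a, Cyp2c, Cyp2d, Cyp4a and Ugt2b families have near-identical copies among which reads can be split, so the values of single members are uncertain.

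Lipid uptake and lipid droplet genes rose in periportal nuclei of Pre-T. Of 26 genes of lipogenesis and lipid storage 11 were called higher and 0 lower, with a median log2 fold change of 1.31, against -0.00339 over all genes tested. Cd36, a fatty acid uptake receptor, stood at 9.76 and 15.1 CPM in Ctrl and 141 and 145 CPM in Pre-T (log2 fold change 3.30 ± 0.32, adjusted p = 4.7e-06). Pnpla3, a lipid droplet lipase, stood at 7.65 and 3.79 CPM in Ctrl and 121 and 82.2 CPM in Pre-T (log2 fold change 3.90 ± 0.39, adjusted p = 8.23e-06). Plin4, which coats lipid droplets, stood at 3.02 and 7.05 CPM in Ctrl and 74.4 and 61.3 CPM in Pre-T (log2 fold change 3.54 ± 0.37, adjusted p = 8.7e-06). Mogat1, which builds diacylglycerol, stood at 0.906 and 0.631 CPM in Ctrl and 18.6 and 19.7 CPM in Pre-T (log2 fold change 4.36 ± 0.48, adjusted p = 1.82e-05). Pparg, a nuclear receptor of fat storage, stood at 19.2 and 15.2 CPM in Ctrl and 73.5 and 66.1 CPM in Pre-T (log2 fold change 1.78 ± 0.30, adjusted p = 0.00115). These 5 were the ones of the 11 called in all 20 alternatives. Acacb, Cidec, Plin5, Thrsp, Cidea and G0s2 were also called and lost their call in 1 to 14 alternatives, and 8 of the 11 were called without the Post-T mice.

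Fasn, Plin2 and Scd1 of the same list did not pass the test. Fasn, the fatty acid synthase, stood at 251 and 136 CPM in Ctrl and 183 and 188 CPM in Pre-T (log2 fold change -0.30 ± 0.35, adjusted p = 0.694), and Plin2, a major droplet coat protein, at 278 and 132 CPM in Ctrl and 277 and 267 CPM in Pre-T (log2 fold change 0.17 ± 0.36, adjusted p = 0.849). Scd1, the stearoyl-CoA desaturase, stood at 591 and 233 CPM in Ctrl and 1037 and 2087 CPM in Pre-T (log2 fold change 1.68 ± 0.52, adjusted p = 0.0674). For Fasn and Plin2 the Pre-T mice lay within the range of the Ctrl mice, and for Scd1 both lay above it without passing the test. In endothelial nuclei of the same mice Cd36 stood at 108 and 201 CPM in Ctrl and 448 and 467 CPM in Pre-T, and Pparg at 61.0 and 83.4 CPM in Ctrl and 138 and 133 CPM in Pre-T, above their periportal levels in the same mice. Pnpla3 stood there at 4.58 and 9.67 CPM in Ctrl and 6.73 and 1.92 CPM in Pre-T, far under its level in periportal nuclei of Pre-T.

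Cholesterol synthesis and uptake genes were lower in Pre-T, but Ctrl 1 lay far above Ctrl 2 for many of them. Of 15 genes 9 were called lower and 0 higher, and the median log2 fold change was -1.81. Sqle, the squalene epoxidase, stood at 73.8 and 34.2 CPM in Ctrl and 7.35 and 4.43 CPM in Pre-T (log2 fold change -3.45 ± 0.45, adjusted p = 0.000115). Idi1, the isopentenyl diphosphate isomerase, stood at 100.5 and 36.2 CPM in Ctrl and 5.88 and 8.87 CPM in Pre-T (log2 fold change -3.43 ± 0.48, adjusted p = 0.000206). Hmgcs1, the cytosolic HMG-CoA synthase, stood at 285 and 31.7 CPM in Ctrl and 25.0 and 22.2 CPM in Pre-T (log2 fold change -3.01 ± 0.66, adjusted p = 0.00838), so that Ctrl 2 lay close to Pre-T and far from Ctrl 1. Fdft1, Cyp51, Lss and Insig1 were called as well, and the 7 genes named here lost their call in 1 to 12 of the 20 alternatives. Without Ctrl 1 the list had 5 calls and a median of -0.62, with 3 of the 15 genes positive, and without Ctrl 2 it had 13 calls. Without both Post-T mice 3 were called, Idi1 and Sqle among them, and with DESeq2 3 were called, while DESeq2 on the 4 Ctrl and Pre-T mice called 9 lower. In edgeR on these 4 mice, leaving out Pre-T 1 left 1 call and leaving out Pre-T 2 left 0. The same order of mice held in non-zonal nuclei, where Hmgcs1 stood at 385 and 42.3 CPM in Ctrl and 30.5 and 28.2 CPM in Pre-T.

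The promoters of these genes are shown because sterol genes are known to be controlled together, by SREBP2 acting with NF-Y at CCAAT boxes. RefSeq promoters (250 bases before to 50 after the start, GRCm38.p6) were at hand for 8 of the 15 genes, and CCAAT, on either strand, stood in 8 of 8, against 41.1% (11096 of 27025) of all genes with such a promoter. The 8 include Srebf2, Mvd and Dhcr7, which were not called lower, and Dhcr7 has several promoters, not all with CCAAT. TCACNCCAC, a form of the sterol element, stood in 1 of 8 (Hmgcs1) against 1.44%. The motifs were chosen after the values were seen, and a match is a description, not a site. Capitals mark TCACNCCAC and CCAAT, the latter as its reverse complement ATTGG where it lies on the other strand. Hmgcs1 is shown for its drop from Ctrl 1 and Idi1 for its call without Post-T mice, and both lie on the plus strand, Hmgcs1 at chr13:119690101-119690400 and Idi1 at chr13:8885356-8885655.
Hmgcs1: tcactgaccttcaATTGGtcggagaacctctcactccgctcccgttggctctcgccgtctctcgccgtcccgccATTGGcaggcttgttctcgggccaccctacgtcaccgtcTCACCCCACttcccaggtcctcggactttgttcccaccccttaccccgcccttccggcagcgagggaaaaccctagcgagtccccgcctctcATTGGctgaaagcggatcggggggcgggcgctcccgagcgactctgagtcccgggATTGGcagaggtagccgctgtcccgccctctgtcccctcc
Idi1: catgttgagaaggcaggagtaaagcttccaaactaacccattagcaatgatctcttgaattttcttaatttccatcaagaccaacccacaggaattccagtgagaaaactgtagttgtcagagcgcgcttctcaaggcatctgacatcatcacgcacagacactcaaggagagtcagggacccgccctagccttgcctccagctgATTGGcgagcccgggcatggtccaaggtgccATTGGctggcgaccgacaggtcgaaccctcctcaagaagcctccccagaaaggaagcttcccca

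Bile acid genes moved in both directions. Of 17 genes 1 was called higher and 6 lower. Cyp7a1, the rate-limiting enzyme of bile acid synthesis and a pericentral gene, stood at 24.7 and 31.2 CPM in periportal nuclei of Ctrl and 154 and 126 CPM in those of Pre-T (log2 fold change 2.10 ± 0.31, adjusted p = 0.000405), and was called in all 20 alternatives. In non-zonal nuclei it stood at 114 and 187 CPM in Ctrl and 191 and 162 CPM in Pre-T, and in endothelial nuclei at 29.0 and 21.8 CPM in Ctrl and 33.6 and 49.9732 CPM in Pre-T, so the periportal level of Ctrl was near that of endothelial nuclei and that of Pre-T near that of non-zonal ones. Cyp7b1, of the alternative pathway, stood at 875 and 2552 CPM in Ctrl and 275 and 277 CPM in Pre-T (log2 fold change -2.83 ± 0.55, adjusted p = 0.0036), and lost its call in 4 alternatives. The uptake transporter Slco1a1 stood at 544 and 516 CPM in Ctrl and 142 and 66.5 CPM in Pre-T (log2 fold change -2.58 ± 0.40, adjusted p = 0.000657), not called without Pre-T 2. Slco1a4, Slc10a1, Nr0b2 and Cyp8b1, also called lower, lost their calls in 2 to 14 alternatives.

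Some acute phase genes rose in Pre-T. Of 21 genes 6 were called higher and 1 lower, with a median log2 fold change of 0.56. Without Pre-T 2 the median was -0.09, with 10 genes positive and 11 negative, and without Ctrl 2 it was 0.06, with 12 positive and 9 negative. Saa2 stood at 2.11 and 1.58 CPM in Ctrl and 42.6 and 138 CPM in Pre-T (log2 fold change 5.38 ± 0.54, adjusted p = 6.6e-06), and Saa1 at 10.2 and 2.63 CPM in Ctrl and 59.7 and 214 CPM in Pre-T (log2 fold change 4.18 ± 0.63, adjusted p = 0.000415). Orm3, an orosomucoid, had 1 and 1 UMI in the Ctrl mice and 25 and 48 UMIs in Pre-T, a ratio of 157 (95% counting interval 41.9 to 1320.0) (edgeR adjusted p = 6.6e-06). Lifr, a receptor of the interleukin-6 family that acts in the acute phase response, was the one called lower, at 609 and 440.0 CPM in Ctrl and 72.0 and 93.5 CPM in Pre-T (log2 fold change -2.89 ± 0.39, adjusted p = 0.000133). Lcn2, Saa2, Orm3 and Lifr were called in all 20 alternatives, and Saa1, Orm2 and Steap4 lost their call in 1 to 4. Pre-T 2 lay above Pre-T 1 for each of the Lcn2, Saa1, Saa2 and Orm3 values.

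The secreted proteins among them were also found outside hepatocytes. In endothelial nuclei, Lcn2 stood at 0 and 0 CPM in Ctrl and 26.9 and 144 CPM in Pre-T, Saa2 at 0 and 0 CPM in Ctrl and 23.6 and 213 CPM in Pre-T, and Orm3 at 0 and 0 CPM in Ctrl and 3.36 and 5.77 CPM in Pre-T. Lcn2 in non-zonal nuclei stood at 0.195 and 0.269 CPM in Ctrl and 39.5 and 85.7 CPM in Pre-T. Lcn2 and Saa2 were thus higher in Pre-T in nuclei of another cell type of the same livers as well, and the part of free RNA in the periportal values was not tested.

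Several male-biased genes fell. Of 14 male-biased and growth hormone-regulated genes 6 were called lower and 0 higher, with a median log2 fold change of -1.57. Besides Hsd3b5, Slco1a1 and Cyp7b1 these were Cyp2d9 (442 and 261 CPM in Ctrl and 125 and 115 CPM in Pre-T, log2 fold change -1.79 ± 0.36, adjusted p = 0.00482), Cyp4a12b (22.7 and 8.20 CPM in Ctrl and 0.979 and 2.02 CPM in Pre-T, log2 fold change -3.55 ± 0.63, adjusted p = 0.00194) and Ugt2b38, which lost its call in 16 alternatives. Hsd3b5 alone of the 6 was called in all 20.

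Genes linked to liver injury and tumors gave 5 calls higher and 3 lower among 16 tested of 20. Ly6d stood at 0.403 and 0.946 CPM in Ctrl and 28.4 and 23.0 CPM in Pre-T (log2 fold change 4.98 ± 0.48, adjusted p = 5.51e-06) and Anxa5, a phospholipid-binding annexin, at 11.4 and 6.20 CPM in Ctrl and 49.9 and 52.8 CPM in Pre-T (log2 fold change 2.31 ± 0.36, adjusted p = 0.000657), both called in all 20 alternatives. Spp1, osteopontin, which cholangiocytes also express, stood at 6.14 and 3.79 CPM in Ctrl and 28.9 and 96.7 CPM in Pre-T (log2 fold change 3.44 ± 0.48, adjusted p = 0.000262), and in endothelial nuclei at 6.10193 and 8.46 CPM in Ctrl and 37.0 and 123 CPM in Pre-T. Afp, the fetal liver protein, stood at 0.906 and 2.63 CPM in Ctrl and 8.81 and 7.25 CPM in Pre-T (log2 fold change 1.96 ± 0.56, adjusted p = 0.0463) and lost its call in 15 alternatives. Gpc3, a glypican of liver tumors, was among those lower, at 4.03 and 5.57 CPM in Ctrl and 0.979 and 1.21 CPM in Pre-T (log2 fold change -2.30 ± 0.66, adjusted p = 0.0472), and lost its call in 17. Anxa2 was also called higher and lost its call in 2 alternatives. Krt23 and Tff3 were called lower and lost their calls in 16 and 15. Without the Post-T mice the list had 4 calls higher and 0 lower.

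Among genes of periportal function Etnppl fell and Apoa4 rose. Of 21 periportal genes 2 were called higher and 3 lower, with a median log2 fold change of -0.98. Etnppl stood at 1069 and 1601 CPM in Ctrl and 115 and 117 CPM in Pre-T (log2 fold change -3.74 ± 0.46, adjusted p = 6.06e-05), and was called in all 20 alternatives. In endothelial nuclei it stood at 264 and 187 CPM in Ctrl and 0 and 3.84 CPM in Pre-T. Apoa4 rose from 5.54 and 5.05 to 94.5 and 174 CPM (log2 fold change 4.44 ± 0.45, adjusted p = 8.1e-06) and was called in all 20, but stood at 7.63 and 1.21 CPM in Ctrl and 188 and 279 CPM in Pre-T in endothelial nuclei, above the periportal level in Pre-T, and the part of free RNA was not tested. Agxt, Mfsd2a and Asl, the only call in the 8 genes of the urea cycle, lost their calls in 8 to 12 alternatives. Ass1, at 1247 and 1224 CPM in Ctrl and 726 and 734 CPM in Pre-T, did not pass (log2 fold change -0.98 ± 0.43, adjusted p = 0.207), but was called lower in 4 of the 20 alternatives, both DESeq2 fits among them. Calls were not made for Arg1 (-1.13 ± 0.47, adjusted p = 0.184), Cps1 (-0.49 ± 0.58, adjusted p = 0.696) and Pck1, the entry enzyme of gluconeogenesis (-0.77 ± 0.50, adjusted p = 0.429). Hal and Gls2 of the rule had log2 fold changes of -2.02 ± 0.46 and -1.22 ± 0.35, which the rule touched and which support nothing.

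Of 27 genes of amino acid catabolism 4 were called lower and 0 higher. Got1, an aspartate aminotransferase, stood at 604 and 522 CPM in Ctrl and 224 and 231 CPM in Pre-T (log2 fold change -1.53 ± 0.35, adjusted p = 0.0118). Agxt, Acmsd and Gpt were the others, and all 4 lost their call in 4 to 14 alternatives. Of 23 genes of glucose handling 3 were called lower and 0 higher. Igfbp2, an insulin-like growth factor binding protein, stood at 287 and 260.2 CPM in Ctrl and 17.1 and 25.8 CPM in Pre-T (log2 fold change -3.88 ± 0.36, adjusted p = 3.4e-06), and Ppp1r3g, a glycogen-targeting phosphatase subunit, at 15.8 and 17.0 CPM in Ctrl and 2.94 and 0.806 CPM in Pre-T (log2 fold change -3.39 ± 0.57, adjusted p = 0.00116), both called in all 20 alternatives, whereas Gys2, the liver glycogen synthase, lost its call in 9. Igfbp2 also stood lower in non-zonal nuclei of Pre-T (205 and 184 CPM in Ctrl and 14.8 and 26.9 CPM in Pre-T).

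Of 18 genes of fatty acid oxidation only Cyp4a10, an omega-hydroxylase regulated by PPAR-alpha, was called, at 3.93 and 5.89 CPM in Ctrl and 42.1 and 38.3 CPM in Pre-T (log2 fold change 2.81 ± 0.36, adjusted p = 0.000106). Ppara itself stood at 1055 and 1794 CPM in Ctrl and 1019 and 858 CPM in Pre-T (log2 fold change -0.81 ± 0.48, adjusted p = 0.382). Of 16 stress response genes 1 was called higher and 2 lower. Asns, the asparagine synthetase, had 219 and 146 UMIs in Ctrl and 0 and 3 in Pre-T, a ratio of 28.3 (95% counting interval 9.61 to 138) (edgeR adjusted p = 0.000169), in all 20 alternatives. Cdkn1a, the cell cycle inhibitor p21, stood at 13.3 and 5.05 CPM in Ctrl and 56.8 and 45.5 CPM in Pre-T (log2 fold change 2.23 ± 0.41, adjusted p = 0.00226) and lost its call in 7 alternatives. Of 21 pericentral genes 2 were called higher, Cyp7a1 and Aldh3a2, and 2 lower, Cyp2c29 (416 and 233 CPM in Ctrl and 73.5 and 85.4 CPM in Pre-T, log2 fold change -2.26 ± 0.36, adjusted p = 0.000672) and Cyp1a2 (50.5 and 46.9 CPM in Ctrl and 3.43 and 11.7 CPM in Pre-T, log2 fold change -2.86 ± 0.50, adjusted p = 0.00151). In endothelial nuclei Cyp2c29 stood at 586 and 320.2 CPM in Ctrl and 124 and 138 CPM in Pre-T, above its level in periportal nuclei.

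**Figure D5:**
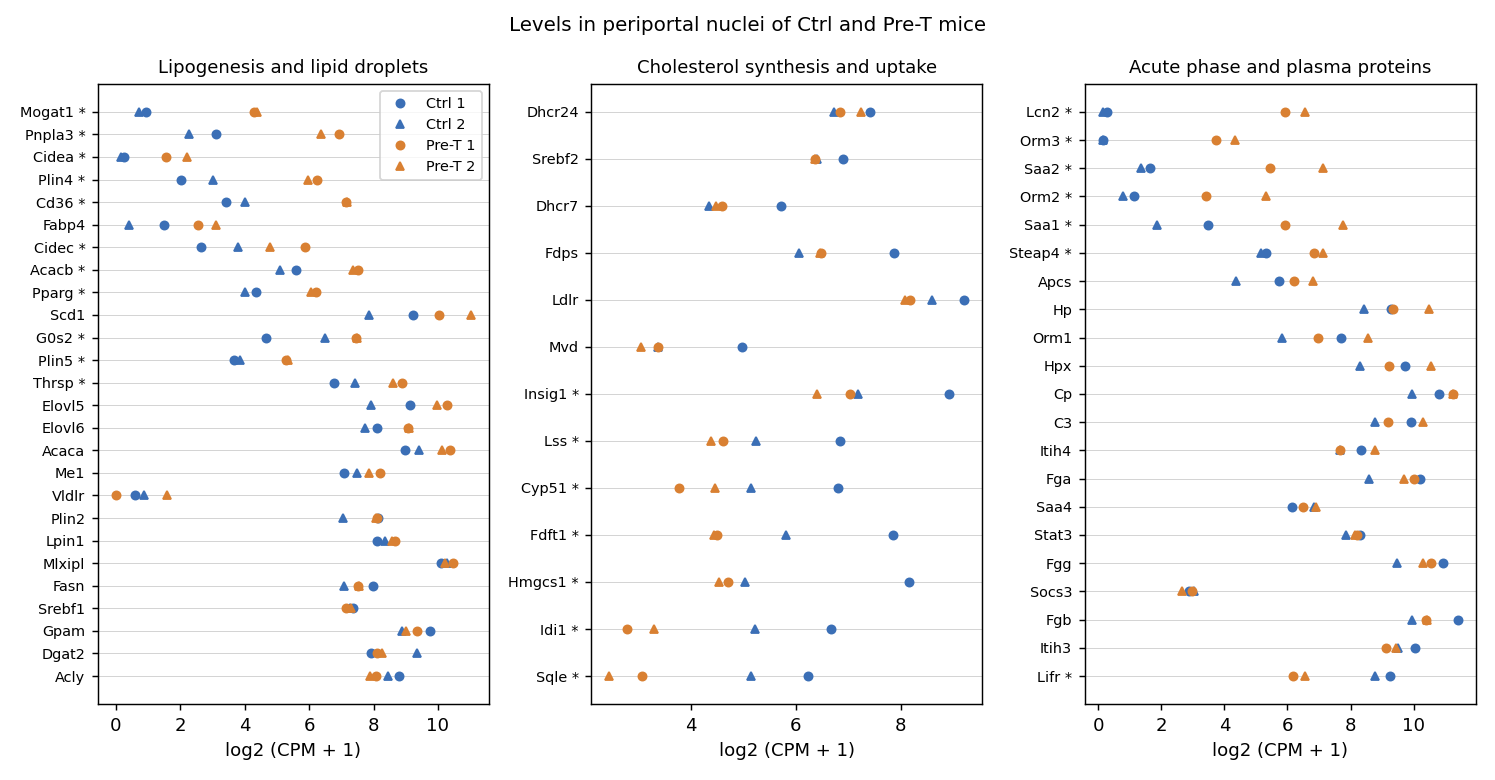
Points give the level of each gene as log2(CPM + 1) (x axis) in periportal nuclei of the 2 Ctrl and 2 Pre-T mice for 3 gene lists, ordered by fold change, with * at genes of adjusted p under 0.05 (edgeR). Of the starred genes, 11 of 26 lipid genes lie higher in Pre-T, 7 of the 13 cholesterol genes drawn lie lower with Ctrl 1 far above Ctrl 2 for many, and 6 of 21 acute phase genes lie higher.

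Markers of other cells moved with these changes in part. The 8 macrophage markers summed to 93.3 and 65.3 CPM in periportal nuclei of Ctrl and to 124 and 403 CPM in those of Pre-T, and 3 of the 8, Cd5l, Cd74 and Mpeg1, were called higher. The 8 endothelial markers summed to 127 and 86.4 CPM in Ctrl and 62.7 and 135 CPM in Pre-T, with no call, and the 8 cholangiocyte markers to 236 and 168 CPM in Ctrl and 237 and 355 CPM in Pre-T, with Spp1 called. Of the stellate cell and fibroblast markers Reln was called lower (155 and 132 CPM in Ctrl and 10.8 and 21.4 CPM in Pre-T), and the 8 summed to 225 and 182 CPM in Ctrl and 38.2 and 117 CPM in Pre-T. Of the 8 lymphocyte markers Themis was called higher and Pax5 lower, with sums of 60.7 and 50.8 CPM in Ctrl and 57.3 and 89.1 CPM in Pre-T. Of 5 proliferation markers tested, Mki67 was called higher, at 0.906 and 0.631 CPM in Ctrl and 3.43 and 6.85 CPM in Pre-T. Ptprc, Ptprb, Stab2, Dcn and Skap1, which the rule capped, are among these markers. The macrophage, endothelial, stellate cell and lymphocyte sums are thus partly set by the rule. The part of other cells in the changes above was not tested.

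Whether a change was larger in periportal than in non-zonal nuclei of the same mice was tested as an interaction of zone and group, with the mouse as block (edgeR). Between Pre-T and Ctrl 292 of 18469 genes passed (1.58%), 150 (0.812%) with a more positive and 142 (0.769%) with a more negative change in periportal nuclei. DESeq2 called 43, and without the mouse block edgeR called 0, with 288 genes at an unadjusted p under 0.05. Of 21 pericentral genes 9 had a more positive change and 0 a more negative one, namely Oat, Cyp7a1, Rgn, Aldh3a2, Cyp2c29, Cyp2c37, Cyp2a5, Nr1i3 and Ahr. Of 21 periportal genes Cps1 and Tat had a more positive change and Hsd17b13, Cdh1 and Mfsd2a a more negative one. In 15 alternative settings the 9 pericentral genes lost their calls in 1 (Cyp7a1) to 8 (Rgn). Cps1 lost its call in 4, Tat in 6, Mfsd2a in 2, and Hsd17b13 and Cdh1 in 1. The zonal log2 ratio of Cyp7a1 was -2.21 and -2.58 in Ctrl and -0.31 and -0.37 in Pre-T, that of Oat, an ornithine aminotransferase, -1.87 and -2.29 in Ctrl and -0.36 and -0.66 in Pre-T, and that of Cdh1, E-cadherin, 2.20 and 2.58 in Ctrl and 0.48 and 0.68 in Pre-T.

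Cyp7a1, Oat and Cdh1 were thus zonated less steeply in Pre-T than in Ctrl, while Cps1 went from 0.52 and 0.30 to 1.63 and 1.21. The genes of the rule summed to 3053 and 3726 CPM in periportal and 153 and 139.5 CPM in non-zonal nuclei of Ctrl, and to 1687 and 1488 CPM in periportal and 66.2 and 108 CPM in non-zonal nuclei of Pre-T. The gap in CPM between the 2 classes was thus smaller in both Pre-T mice. As a ratio of periportal to non-zonal, Pre-T 2 lay under both Ctrl mice, while Pre-T 1 lay within their range. The part of this difference in gate strength, and of that in the non-zonal class, was not tested. With the limit at 0.1% in place of 0.05%, 273 genes passed.

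Genes of other metabolic lists passed as well. Of 26 lipid genes Acacb, Elovl6, Mogat1, Pparg, Cd36, Plin4 and G0s2 changed more positively in periportal than in non-zonal nuclei and Cidec more negatively. Plin4, for one, stood at 3.52 and 58.2 CPM in Ctrl and 161 and 143 CPM in Pre-T in non-zonal nuclei. Mogat1 stood there at 4.88 and 5.39 CPM in Ctrl and 33.8 and 35.3 CPM in Pre-T. Both thus stood higher in Pre-T there too, Mogat1 by a smaller ratio than in periportal nuclei. In periportal nuclei Plin4 stood at 3.02 and 7.05 CPM in Ctrl and 74.4 and 61.3 CPM in Pre-T. Its non-zonal ratio was smaller only against the Ctrl mouse at 58.2 CPM, and larger against the one at 3.52 CPM. The periportal to non-zonal ratio of Plin4 in each Pre-T mouse thus lay between those of the Ctrl mice. Of 27 genes of amino acid catabolism Tat, Hpd, Tdo2, Afmid and Oat changed more positively and 0 more negatively. Of the cholesterol genes Insig1 did, of 21 acute phase genes Saa1, and of 17 bile acid genes Cyp7a1 and Slco1b2, while Cyp7b1, Slco1a4 and Abcc4 changed more negatively.

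Hamp, which encodes the iron hormone hepcidin (chr7:30942368-30944032), differed between periportal and non-zonal nuclei in Pre-T far more than in Ctrl. It stood at 952 and 2176 CPM in periportal nuclei of Ctrl and 1247 and 1064 CPM in those of Pre-T, and in non-zonal nuclei at 1097 and 2225 CPM in Ctrl and 329.9 and 364 CPM in Pre-T. Its zonal log2 ratio was -0.20 and -0.03 in Ctrl and 1.92 and 1.55 in Pre-T (difference 1.81 ± 0.18, edgeR adjusted p = 8.91e-21). The level in periportal nuclei overlapped between the groups, and that in non-zonal nuclei was lower in both Pre-T mice. Within periportal nuclei of Pre-T, Hamp went from 587 and 741 CPM at a gate share of 0.05 to 0.1% to 1590.0 and 1472 CPM at 0.2 to 0.5%, and in Ctrl from 1172 and 2877 to 876 and 2172 CPM.

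Post-T rested on 17 periportal nuclei, 16 of them from 1 mouse. The median log2 fold change of all genes was -1.01 against Ctrl and -0.893 against Pre-T in edgeR, and 0.237 and 0.0739 with DESeq2. The edgeR fold changes of Post-T below are thus measured in a fit that is shifted downward as a whole. Against Ctrl 136 of 16422 genes were called (0.828%), 65 higher and 71 lower, and against Pre-T 29 (0.177%), 15 higher (0.0913%) and 14 lower (0.0853%). Without Post-T 1 the counts were 2 and 0, and without Post-T 2 they were 29 and 0. Hamp had 9455 and 20692 UMIs in Ctrl, 2546 and 2639 in Pre-T and 0 and 0 in Post-T, which is at least 68.4-fold lower than Ctrl and at least 50.6-fold lower than Pre-T when 3 counts over the group are taken as the floor (edgeR adjusted p = 0.000753 and 0.0127). The low level was not particular to periportal nuclei. A UMI of Hamp was seen in 0.285 and 0% of non-zonal nuclei of Post-T, against 72.7 and 84.2% in Ctrl. In Glul-high nuclei it was seen in 0.393 and 0.149% in Post-T, against 47.7 and 68.4% in Ctrl. Slco1a1 had 5408 and 4906 UMIs in Ctrl and 0 and 0 in Post-T, at least 23.4-fold lower (adjusted p = 0.000983). Car3, a carbonic anhydrase, stood at 1522 and 1101 CPM in Ctrl and 619 and 738 CPM in Pre-T and 41.7 and 81.2 CPM in Post-T (against Ctrl, log2 fold change -5.27 ± 0.68, adjusted p = 0.000807). Fmo2, a flavin monooxygenase, stood at 6.64 and 10.9 CPM in Ctrl, 20.1 and 16.5 CPM in Pre-T and 91.7 and 1787 CPM in Post-T (against Ctrl, log2 fold change 5.01 ± 0.72, adjusted p = 0.00158), where the 1 nucleus of Post-T 2 gave the far higher value and without it the call was lost.

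Lipid enzymes were among the 14 genes lower in Post-T than in Pre-T. Thrsp, which promotes lipogenesis, stood at 474 and 389 CPM in Pre-T and 16.7 and 81.2 CPM in Post-T, where it had 3 UMIs in all, and Elovl5, a fatty acid elongase, at 1236 and 1004 CPM in Pre-T and 75.0 and 0 CPM in Post-T (log2 fold change -4.31 ± 0.71, adjusted p = 0.0194, against Pre-T). Acaa1b, a peroxisomal thiolase, stood at 1305 and 1209 CPM in Pre-T and 75.0 and 325 CPM in Post-T (log2 fold change -3.77 ± 0.58, adjusted p = 0.0127). Cd36 kept a level of 108 and 162 CPM (against Ctrl, log2 fold change 2.76 ± 0.52, adjusted p = 0.0131). Lcn2, at 350.0 and 0 CPM, was present in Post-T 1 with 42 UMIs and not detectable in Post-T 2 at this depth. With no filter on low counts none of the calls named here was kept (2 calls in all against Ctrl and 0 against Pre-T). Without Post-T 2 the calls of Hamp and Car3 against Ctrl were kept. Of the 18469 genes tested for the interaction of zone and Post-T 122 passed (0.661%), 45 higher (0.244%) and 77 lower (0.417%), and 73 with DESeq2.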

How the data were processed

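Single-nucleus libraries of 6 livers were aligned to mm10 (GRCm38) with Cell Ranger 6.1.1, per the labels, and the authors deposited filtered matrices of raw UMI counts per gene and nucleus. Whether intron reads were counted is not given in the sources used here. The counts were read with Python 3.11.15 (numpy 2.4.6, scipy 1.17.1, pandas 2.3.3), nuclei were gated as the report states, and UMIs were summed per mouse and class. No doublet caller was run, and the limits on genes and on UMIs of other cell types were relied on instead. Genes with at least 10 counts were tested with edgeR 4.0.16 (TMM, quasi-likelihood, 1 fit of the 6 mice that left 3 degrees of freedom for the residuals), run with limma 3.58.1 in R 4.3.3, and p-values were adjusted over all genes tested (Benjamini-Hochberg). The zone difference had the mouse as block. DESeq2 1.42.0, other filters, gates and depths, and leaving out each mouse were alternatives, and the fits without Post-T mice were added after the data were seen. The code was tested on simulated data.

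Genes were named by rule: per comparison the 10 largest changes in each direction among called genes of at least 10 CPM with no overlap between groups and no predicted gene or clone name, the called members of the lists, Ass1, and the 5 genes of lowest p in each direction of a zone difference. Beside these, Fasn, Plin2, Scd1, Ppara, Cps1, Arg1 and Pck1 were chosen after their values were seen. The rule for periportal nuclei, the lists and the tests were chosen with earlier results of these data known. Where a group held 1 to 3 UMIs, the ratio of pooled CPM is given with an exact interval. A gene with 2 identifiers was left out of the stress list. Some genes that met the rule are not reported here.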

Additional observations from a re-analysis of the deposited data

Results flagged for a closer look

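The results below are differences between periportal and non-zonal nuclei of the same mice in their change from Ctrl, each found by a test of the difference itself (edgeR, mouse as block). For Pre-T 292 genes passed, and for Post-T, with 17 periportal nuclei, 122. The 5 genes of lowest p in each direction for Pre-T are given as log2 differences, with their zonal log2 ratios in the 4 mice, and no cause was tested for any of them.

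Limch1, an actin-binding protein, had a difference of 3.42 ± 0.25 (adjusted p = 4.71e-38), with zonal ratios of -1.69 and -1.85 in Ctrl and 1.96 and 1.48 in Pre-T, so it was lower in periportal nuclei of Ctrl and higher in those of Pre-T. Grip1, a scaffold protein, changed sign as well, with a difference of 1.78 ± 0.18 and ratios of -1.51 and -1.30 in Ctrl and 0.28 and 0.55 in Pre-T. Cyp7a1 had 2.02 ± 0.18, Kcnb2, a potassium channel, 1.80 ± 0.17 (ratios -2.06 and -2.33 in Ctrl and -0.48 and -0.21 in Pre-T) and Hamp 1.81 ± 0.18.

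In the other direction, Adgrv1, an adhesion receptor, had a difference of -2.26 ± 0.22 (ratios -0.43 and -0.33 in Ctrl and -2.65 and -2.52 in Pre-T), so it stood far lower in periportal than in non-zonal nuclei of Pre-T. Tcf7l1, a transcription factor of the Wnt pathway, had -1.93 ± 0.19 (ratios 2.09 and 2.34 in Ctrl and 0.49 and 0.13 in Pre-T), C4a, a complement component with a near-identical copy, -1.94 ± 0.22 (ratios 2.09 and 2.59 in Ctrl and 0.38 and 0.46 in Pre-T), Ptpre, a tyrosine phosphatase, -2.67 ± 0.32 (ratios 1.70 and 2.61 in Ctrl and 0.27 and -1.10 in Pre-T) and Cdh1 -1.80 ± 0.22 (ratios 2.20 and 2.58 in Ctrl and 0.48 and 0.68 in Pre-T). All 4 were higher in periportal nuclei of both Ctrl mice, and less so, or not, in Pre-T. Of 15 alternative settings, Ptpre lost its call in 3 and Tcf7l1 in 2, DESeq2 among them for both. Each of the other genes of this section lost its call in 1, the fit without the mouse block.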

How the results depend on the processing

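Of the 20 alternatives run for Pre-T against Ctrl, those that moved the count of calls from 1020 by over 1.5 times were no filter on low counts (261), 0 UMIs of the excluded genes (386), Ctrl and Pre-T mice only (519), and leaving out 1 mouse of the 6 (515 to 1498) or of these 4 (229 to 1837, where leaving out Ctrl 1 gave 1777, Ctrl 2 1837, Pre-T 1 229 and Pre-T 2 283). DESeq2 on these 4 mice called 1004. For Post-T against Ctrl (136) the counts were 259 with DESeq2, 2 with no filter, 66 with the gate at 0.1% and 0 with 0 UMIs of the excluded genes, and 2 to 409 with 1 mouse left out. For Post-T against Pre-T (29) they were 75 with DESeq2, 0 with no filter, the gate at 0.1% or 0 UMIs of the excluded genes, and 0 to 166 with 1 mouse left out. At 0 calls, 845 to 1429 genes still had an unadjusted p under 0.05, and with 0 UMIs of the excluded genes Post-T 2 held no periportal nucleus and was dropped. For the zone difference in Pre-T (292) the counts were 43 with DESeq2, 0 without the mouse block (288 at an unadjusted p under 0.05), 99 after thinning to 2500 UMIs and 89 to 312 with 1 mouse left out, and for that in Post-T (122) 73, 0 (830 at an unadjusted p under 0.05), 26 and 55 to 94, and 61 with the gate at 0.1%. An arm left with 1 mouse was assumed to vary like the others.

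With DESeq2's size factors in edgeR the share of calls that were higher went from 52.5 to 63.2% for Pre-T against Ctrl, from 47.8 to 66.1% for Post-T against Ctrl, and for the zone difference from 51.4 to 62.4% in Pre-T and from 36.9 to 64.5% in Post-T. The periportal share in Ctrl was 60.4% with the gate at 0.1% and 70.6% with 0 UMIs of the excluded genes. With the replicate number as a replicate block the counts were 989, 240 and 89, but mice of the same number did not deviate together (correlations of -0.231, 0.0635 and -0.0439 over 9087 genes), so that they share only a number.

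For 79 genes named for Pre-T against Ctrl, 375 of the fits under an alternative lost the call, 4 gained it (all for Ass1) and 1196 did neither, and 0 changed direction. Direction changed for Ass1 in Post-T against Pre-T with 0 UMIs of the excluded genes (-0.59), and for the zone difference of Cyp2b9 in Post-T, without Post-T 1 (-0.00716, with -0.00716 to 4.32 over the mice left out) and with the gate at 0.1% (-8.63). The cause was not tested in any of these. The Post-T values rest on 16 nuclei and 1 nucleus.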
